A study of Mus musculus with 6 samples.

Results

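Eph receptors and their ephrin ligands were compared between ascending and descending aorta of mouse embryos. The genes were chosen by name, with earlier results of these data known. Of 9 ephrin and Eph receptor genes listed, 8 (Efna5, Efnb1, Efnb2, Epha3, Epha4, Epha7, Ephb3 and Ephb4) were measured through a probe set carrying exactly 1 gene symbol, out of 19938 genes so measured. Ephb2 was not analysed here. Each of the 8 genes had 1 such probe set. The study set the ascending aorta, 3 arrays, against the descending aorta, also 3 arrays, in order to find expression that follows the embryonic origin of the vessel wall, and its title names neural crest and mesoderm as those origins. All 6 samples were untreated primary tissue of wild-type C57BL/6 embryos at 13.5 days postcoitum. The 3 samples of a segment carry the label biological replicate, with no embryo, litter or pool named behind them. What the p-values weigh is the spread among 6 samples, part of which may be technical. Values are log2 expression, so a step of 1 is a doubling of signal, and each difference is ascending minus descending.

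Eph receptors are membrane tyrosine kinases that are activated by ephrins on a neighbouring cell. Ephrin-A ligands are tied to the membrane by a lipid anchor and ephrin-B ligands span it, and both can send a signal back into the cell that carries them. Cell contact of this kind sorts cells at tissue borders, steers axons and migrating neural crest, and shapes blood vessels, where ephrin-B2 marks arterial and EphB4 venous endothelium.

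The groups of 3 arrays overlapped for each of the 8 genes. For 3 of the 8, ascending replicates 1 and 2 stood together outside the descending range, against 34.5% of all genes, a similar share. On ascending replicates 1 and 2 the ligand genes Efna5 and Efnb2 stood above all descending arrays and the receptor gene Epha4 stood below them, while ascending replicate 3 lay inside the descending range for Efna5 and Epha4 and below it for Efnb2. With all 6 arrays, limma called 0 of the 8 genes at an adjusted p of 0.05 and also 0 of 19938 genes in all, a background of 0%. At an unadjusted p under 0.05 it called 0 of the 8, against 9.29% of all genes, and at the adjusted threshold a test without moderated variance called 0 as well. Without ascending replicate 3, 3 of the 8 passed, Efna5 and Efnb2 higher and Epha4 lower in ascending aorta, against 4.68% of all genes. That contrast is not neutral, because the 8 genes were chosen with earlier results of these data known. Since the values of ascending replicate 3 are the reason for leaving it out, the fit of 5 arrays probably gives p-values that are too small.

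The stretch of genome just before the start sites of these 3 genes is shown here because they are the members that departed together. The share of members that did so is near the 34.5% of all genes. Each sequence is the 250 bases before the RefSeq start site in GRCm38.p6, read 5′ to 3′ on the strand of the gene, with the GC box GGGCGG in capitals, which reads as CCGCCC where it lies on the opposite strand. The windows are chr17:62881318-62881567 for Efna5, chr8:8661243-8661492 for Efnb2 and chr1:77515089-77515338 for Epha4, all on the minus strand.
Efna5: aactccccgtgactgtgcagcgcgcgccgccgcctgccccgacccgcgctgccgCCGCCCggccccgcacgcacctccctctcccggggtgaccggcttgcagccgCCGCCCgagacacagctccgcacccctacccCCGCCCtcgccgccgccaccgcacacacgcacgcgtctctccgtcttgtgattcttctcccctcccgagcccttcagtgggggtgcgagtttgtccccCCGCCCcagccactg
Efnb2: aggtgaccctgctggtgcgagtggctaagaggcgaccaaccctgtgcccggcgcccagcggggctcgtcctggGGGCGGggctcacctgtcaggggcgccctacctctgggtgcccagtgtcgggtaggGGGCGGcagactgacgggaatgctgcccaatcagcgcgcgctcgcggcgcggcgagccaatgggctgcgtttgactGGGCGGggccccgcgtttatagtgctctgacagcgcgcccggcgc
Epha4: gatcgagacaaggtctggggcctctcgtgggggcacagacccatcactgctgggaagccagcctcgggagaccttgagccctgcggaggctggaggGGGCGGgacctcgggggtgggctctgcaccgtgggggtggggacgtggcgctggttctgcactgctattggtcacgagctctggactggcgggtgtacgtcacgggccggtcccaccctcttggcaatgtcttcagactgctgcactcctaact
The GC box occurred 4 times before Efna5, 3 times before Efnb2 and 1 time before Epha4, and 32.7% of all 32851 windows of the same length held it. It also occurred 4 times before Ephb4, 2 times before Ephb3 and 1 time before Epha7, so it does not set the 3 genes apart. Ephb4, Ephb3 and Epha7 passed neither with nor without ascending replicate 3, and Efna5, Efnb2 and Epha4 passed only without it. The windows of Efna5, Efnb2 and Epha4 were 74.8%, 72.0% and 66.0% G and C, against a median of 52.4% over all windows (25th to 75th percentile 45.2% to 61.2%). Windows of the other 5 measured members were also above that median, from 60.0% for Efnb1 to 69.2% for 1 window of Epha7. With both strands searched, the E-box CANNTG was found 1 time before Efnb2 and in neither of the other windows, against 66.2% of all windows. TGGGAA, a core that Rbpj binds, was found 1 time before Epha4, against 21.6% of all windows, and AGATAA, which factors of the Gata family bind, in none of the 3, against 9.99%. These matches describe letters and not binding, and the expression values of these arrays do not bear on them.

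Across genes, ascending replicate 3 correlated more closely with the descending arrays (mean Pearson's r = 0.996) than with the other ascending arrays (mean r = 0.988). Such coefficients run over genes, which are no replicates of each other. The labels do not settle whether that sample is ascending aorta alone, so every mean and difference over all 6 arrays rests on its label as given. Smooth muscle was represented on every array by its actin gene Acta2, at 13.63 to 13.74 in ascending and 13.67 to 13.77 in descending aorta. Acta2 does not speak for all 9 smooth muscle markers, of which 4 were higher by mean. Myh11 (-0.53), Mylk (-0.27) and Itga8 (-0.28) were lower on every ascending array than on any descending array. Endothelium was represented by Cdh5, the cadherin gene of its junctions, at 11.80 to 12.39 in ascending and 12.37 to 12.61 in descending aorta. The difference of each of the 8 genes is therefore given with and without ascending replicate 3. In tissue RNA, fewer cells of a type and less RNA per cell cannot be told apart. Levels of different genes come from different probes, so the members are not ranked against each other.

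Among the ligands, Efna5 (probe set 10452419) encodes ephrin-A5, a repulsive cue for axons that binds several EphA receptors. Its values were 11.21, 11.71 and 9.85 on ascending replicates 1, 2 and 3, against 10.18, 9.81 and 9.91 on the descending replicates. Replicates 1 and 2 of ascending aorta were the highest of all arrays and replicate 3 lay inside the descending range, so the groups overlapped. Efna5 averaged 10.92 ± 0.96 in ascending and 9.97 ± 0.19 in descending aorta (SD, n = 3 each). The difference was 0.96 ± 0.42 (SE), a 1.94-fold higher level, with a 95% interval from -0.02 to 1.93, and it did not pass (adjusted p = 0.538 by limma). The 5 arrays without ascending replicate 3 gave 1.49 ± 0.17 (SE), or 2.81-fold, and the gene passed (adjusted p = 0.00301 by limma), whereas without ascending replicate 2 the difference was 0.56. A difference at least as large as that of Efna5 over all 6 arrays was reached by 0.672% of all genes.

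Efnb2 (probe set 10576911) encodes ephrin-B2, the transmembrane ligand of arterial endothelium that vascular smooth muscle also makes. It read 11.50, 11.84 and 10.91 on the ascending arrays, against 11.02, 11.03 and 11.14 on the descending arrays. The descending arrays lay close together, 2 ascending arrays lay above them and the third lay below all of them. The means were 11.41 ± 0.47 in ascending and 11.06 ± 0.07 in descending aorta (SD, n = 3 each), a difference of 0.35 ± 0.21 (SE) with a 95% interval from -0.15 to 0.84 (adjusted p = 0.611 by limma). Efnb2 without ascending replicate 3 was higher by 0.60 ± 0.12 (SE), or 1.52-fold, and passed (adjusted p = 0.0311 by limma). When descending replicate 1 was left out as well the difference was 0.58 and did not pass (adjusted p = 0.106 by limma). It was 0.14 without ascending replicate 2.

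Efnb1 (probe set 10600936) encodes ephrin-B1, which acts in neural crest of the face and skull. It gave 10.09, 9.79 and 10.11 in ascending and 10.35, 10.04 and 10.06 in descending aorta. Only ascending replicate 2 stood below all descending arrays, and the other ascending arrays lay inside their range. The difference of -0.15 ± 0.13 (SE) had a 95% interval from -0.45 to 0.14 (adjusted p = 0.695 by limma), and leaving out each array in turn moved it between -0.21, without ascending replicate 3, and -0.05.

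**Figure D1:**
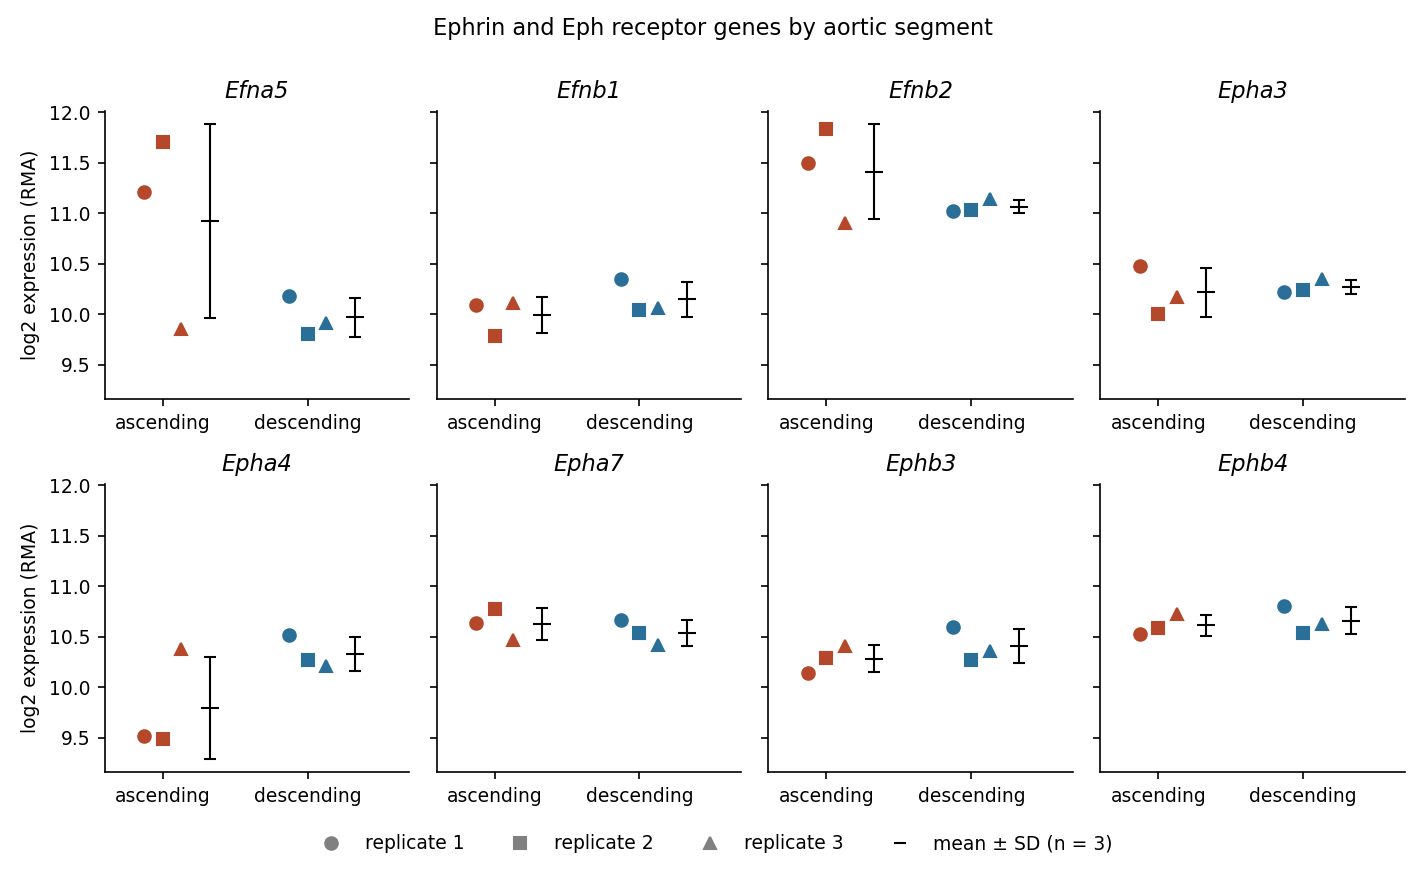
Log2 expression of the 8 ephrin and Eph receptor genes, a panel for each gene, with ascending aorta left of descending aorta. Symbols are the single arrays and the bar beside them is the mean ± SD of 3 arrays; for Efna5, Efnb2 and Epha4 the ascending replicates 1 and 2 stand apart from replicate 3, which gave 9.85, 10.91 and 10.38.

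Among the receptors, Epha4 (probe set 10355893) encodes EphA4, which binds ephrins of both classes. Its values were 9.52, 9.49 and 10.38 in ascending, against 10.52, 10.26 and 10.21 in descending aorta. The first pair of ascending arrays differed little from each other and stood below every descending array, while replicate 3 lay inside the descending range. Epha4 averaged 9.80 ± 0.51 in ascending and 10.33 ± 0.17 in descending aorta (SD, n = 3 each), a difference of -0.54 ± 0.23 (SE) with a 95% interval from -1.08 to 0.01 (adjusted p = 0.538 by limma). Epha4 without ascending replicate 3 differed by -0.83 ± 0.11 (SE), a 1.77-fold lower level, and passed (adjusted p = 0.00736 by limma). Leaving out ascending replicate 2 in its place gave -0.38. A difference at least as large as that of Epha4 over all 6 arrays was reached by 2.81% of all genes.

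Epha3 (probe set 10440258) encodes EphA3, a receptor for ephrin-A5 that is needed for the endocardial cushions of the heart. It read 10.48, 10.004 and 10.17 in ascending and 10.22, 10.24 and 10.35 in descending aorta. Ascending replicate 1 was the highest of all 6 arrays and replicate 2 the lowest, so here the pair that stood together for Efna5, Efnb2 and Epha4 pointed opposite ways. The difference was -0.05 ± 0.13 (SE), with a 95% interval from -0.35 to 0.24 (adjusted p = 0.902 by limma). It was -0.03 without ascending replicate 3, and its sign turned without ascending replicate 2, at 0.06.

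Epha7 (probe set 10503659) encodes EphA7, known from the mapping of brain and sensory projections. Its values were 10.64, 10.78 and 10.47 in ascending, against 10.67, 10.53 and 10.42 in descending aorta. The order of the ascending arrays was that of Efna5 and Efnb2, with replicate 2 highest and replicate 3 lowest, but they spanned 0.24 above to 0.07 below the descending mean. The difference was 0.09 ± 0.11 (SE), with a 95% interval from -0.16 to 0.34 (adjusted p = 0.796 by limma), and 0.17 without ascending replicate 3 (adjusted p = 0.504 by limma). Leaving out ascending replicate 2 gave 0.013, and leaving out descending replicate 3 gave 0.027.

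Ephb3 (probe set 10434559) encodes EphB3, a receptor for B-class ephrins that acts with EphB2 in closing the palate. It gave 10.15, 10.29 and 10.41 in ascending and 10.60, 10.27 and 10.36 in descending aorta, with descending replicate 1 the highest. Ephb4 (probe set 10526566) encodes EphB4, the receptor for ephrin-B2 on venous endothelium. It gave 10.53, 10.59 and 10.72 in ascending and 10.81, 10.54 and 10.63 in descending aorta, again with descending replicate 1 on top.

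The 2 segments overlapped for both B-class receptors. Ephb3 differed by -0.13 ± 0.11 (SE; 95% interval from -0.39 to 0.14) and Ephb4 by -0.05 ± 0.10 (SE; 95% interval from -0.28 to 0.18), and without ascending replicate 3 the differences were -0.19 and -0.10. Neither gene passed in either fit (adjusted p = 0.726 for Ephb3 and 0.883 for Ephb4 over all 6 arrays by limma). Without descending replicate 1 the differences were -0.03 for Ephb3 and 0.03 for Ephb4, and without ascending replicate 1 that of Ephb3 was -0.06. For Ephb4 a difference of 2-fold in either direction lay outside the interval, and the same held for Ephb3, Epha3, Epha7 and Efnb1, for which the intervals together ran from -0.45 to 0.34.

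Taken by array, ascending replicate 3 lay inside the range of the descending arrays for 6 of the 8 genes and below it for the other two, Efnb2 and Epha3. For 3 of the 8 genes ascending replicates 1 and 2 stood together outside the descending range, both above or both below it. That is similar to the 34.5% of all genes. The groups of 3 arrays were fully apart for 0 of the 8, against 14.8% of all genes. Descending replicate 1 was the highest of all 6 arrays for 4 of the 8, namely Efnb1, Epha4, Ephb3 and Ephb4. The median difference of the 8 genes was -0.05, beside -0.02 over all genes, and the median size of the difference irrespective of sign was 0.14, beside 0.09 over all genes. The 8 genes lay between the 83.6 and 94.9 percentiles of all genes by mean signal. The background of all genes therefore holds many dimmer genes, whose differences RMA shrinks.

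**Figure D2:**
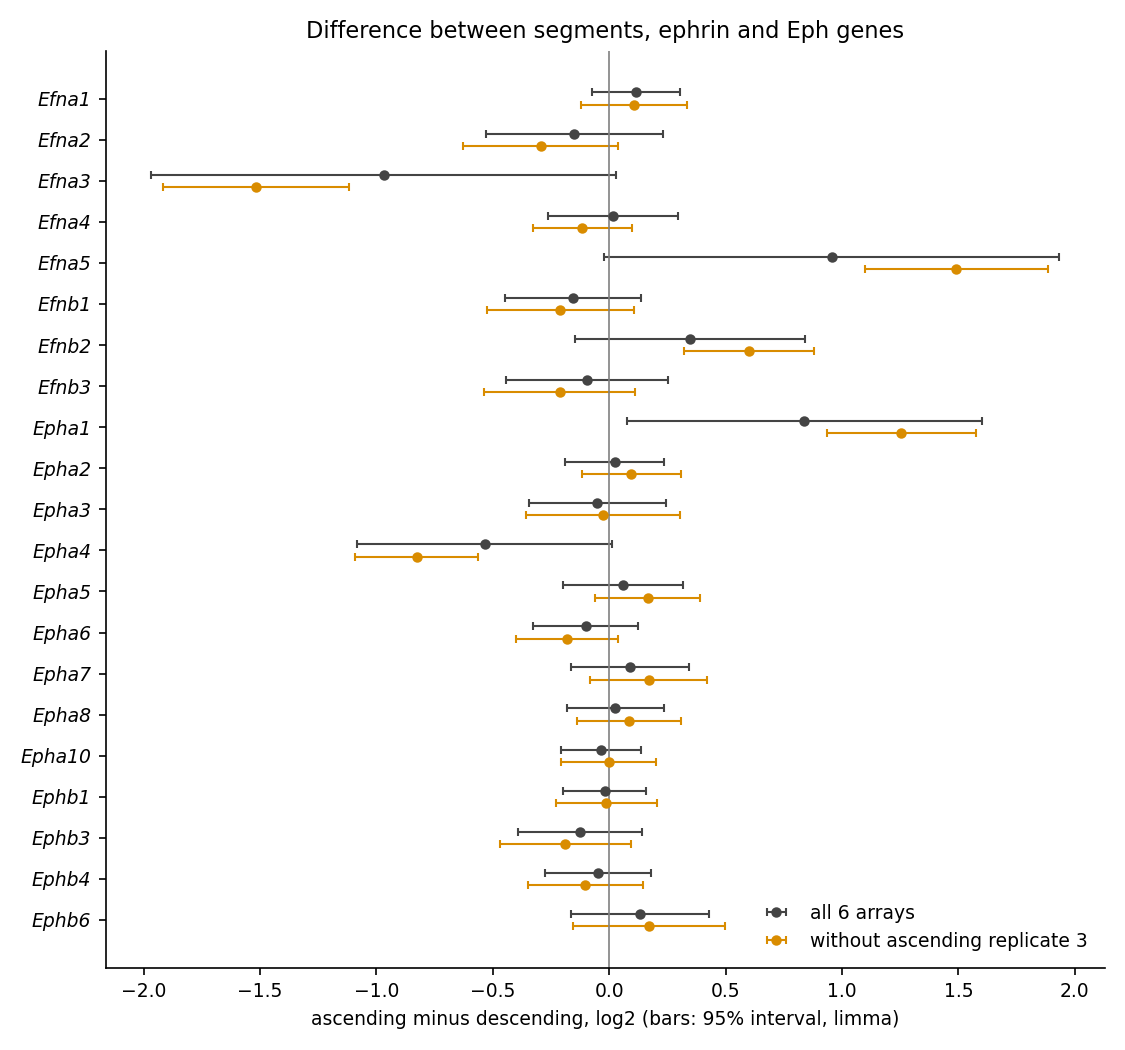
Difference between ascending and descending aorta in log2 units for the 21 ephrin and Eph receptor genes measured, with 95% intervals from limma, over all 6 arrays and without ascending replicate 3. Over all 6 arrays the interval held 0 for each of the 8 genes described and for 12 of the 13 others, the exception being Epha1.

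The remaining ligands and receptors of the family had 13 genes, all measured. Over all 6 arrays 0 of them passed in limma, 1 had an unadjusted p under 0.05 (Epha1, higher) against 9.29% of all genes, and the median difference was 0.01. Without ascending replicate 3, 1 passed as higher, against 2.07% of all genes, and 1 as lower, against 2.61%. Those were the receptor gene Epha1 and the ligand gene Efna3.

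Efna3, which encodes ephrin-A3, gave 9.25, 8.74 and 10.64 in ascending and 10.74, 10.41 and 10.38 in descending aorta. The first pair of ascending arrays stood below every descending array, and replicate 3 lay inside the descending range. The difference was -0.97 ± 0.43 (SE; adjusted p = 0.538 by limma) over all arrays and -1.52 ± 0.17 (SE; adjusted p = 0.00305 by limma) without ascending replicate 3. Efna3 thus differed in the opposite direction from Efna5, a ligand of the same class, on the same arrays.

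In the RefSeq gene table of GRCm38.p6, Efna3 lies between Efna1 and Efna4 with no other protein-coding gene between them. Efna1, whose product ephrin-A1 is a ligand of EphA2, read 9.75, 9.95 and 9.87 in ascending and 9.71, 9.76 and 9.76 in descending aorta, a difference of 0.11 ± 0.08 (SE). Efna4 read 9.84, 9.71 and 10.16 in ascending and 9.89, 9.87 and 9.90 in descending aorta, a difference of 0.01 ± 0.12 (SE). Neither neighbour passed with or without ascending replicate 3, and whether their differences differ from that of Efna3 was not tested.

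Epha1, a receptor gene of the A class, read 8.28, 8.71 and 7.25 in ascending and 7.18, 7.19 and 7.36 in descending aorta. Replicates 1 and 2 of ascending aorta again stood above all descending arrays and replicate 3 inside their range. The difference was 0.84 ± 0.33 (SE; adjusted p = 0.53 by limma) over all arrays and 1.25 ± 0.14 (SE; adjusted p = 0.00265 by limma) without ascending replicate 3. The other receptor genes outside the 8 (Epha2, Epha5, Epha6, Epha8, Epha10, Ephb1 and Ephb6) differed by no more than 0.13 in either direction, from -0.10 for Epha6 to 0.13 for Ephb6, and the ligand genes Efna2 and Efnb3 by -0.15 and -0.09.

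**Figure D3:**
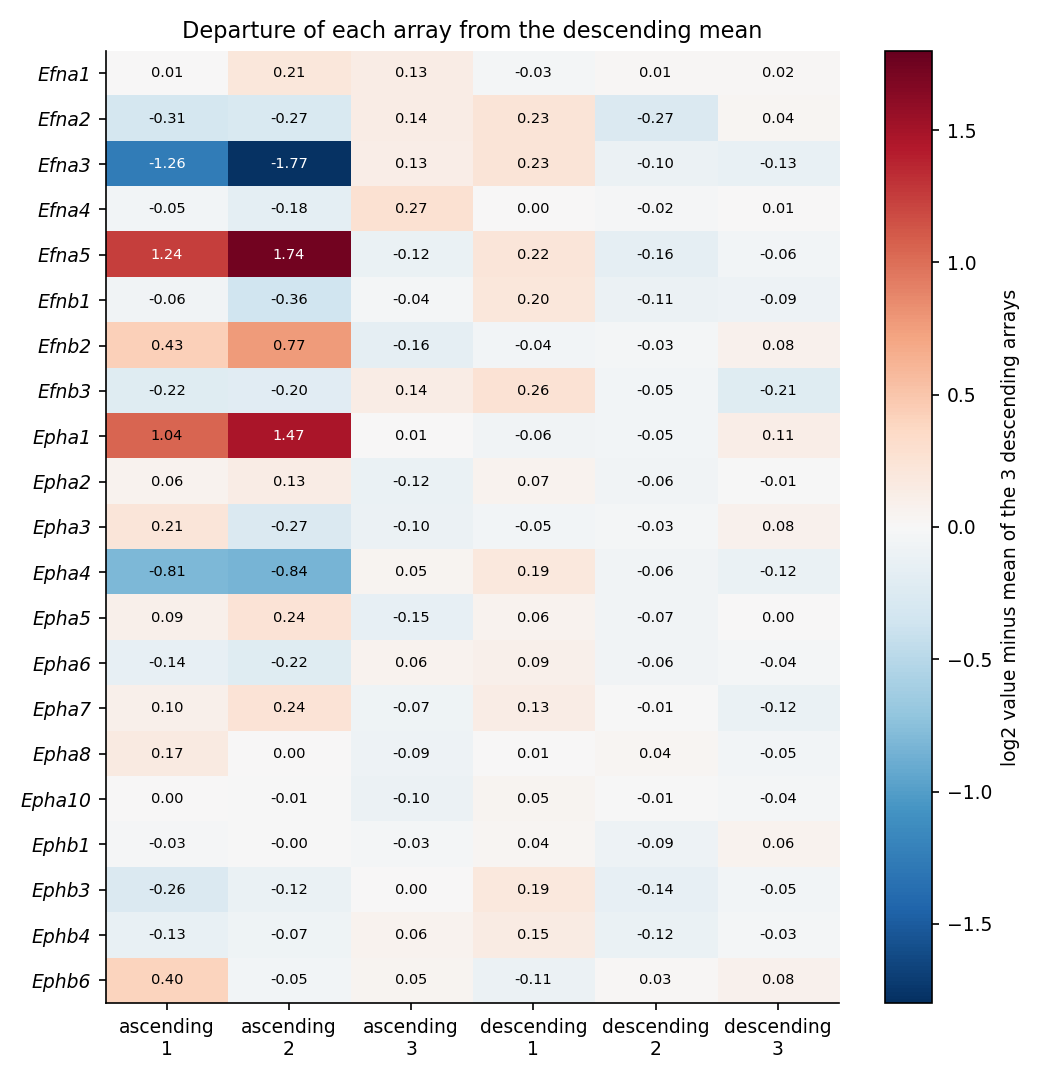
Log2 value of each array minus the mean of the 3 descending arrays for the 21 genes of the family, ascending arrays on the left. The darkest cells are those of Efna5 (1.24 and 1.74), Efna3, Epha1 and Epha4 (-0.81 and -0.84) on ascending replicates 1 and 2, and the column of ascending replicate 3 is paler, at -0.12 for Efna5 and 0.05 for Epha4.

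Genes that carry the signal into the cell from an activated Eph receptor were represented by 23 of 24 listed. Over all 6 arrays 0 passed in limma, 4 were lower and 0 higher at an unadjusted p under 0.05 (all genes: 5.33% lower, 3.96% higher), and the median difference was -0.04. By the smallest p these 4 were Ngef, which encodes ephexin, a signalling protein bound to EphA4, at -0.23 ± 0.07; Itsn1, an exchange factor for Cdc42 that acts with EphB2, at -0.20 ± 0.08; the Rac exchange factor Tiam1 at -0.39 ± 0.16; and the Src-family kinase gene Fyn at -0.31 ± 0.13 (SE). In the fit without ascending replicate 3, 0 of the 23 passed, against 4.68% of all genes.

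Ephrin reverse signalling was represented by 10 genes, of which 0 passed over all arrays and 1 was lower at an unadjusted p under 0.05, against 5.33% of all genes, with a median difference of -0.01. That gene was Pdzrn3, a ubiquitin ligase with PDZ domains, at -0.37 ± 0.12 (SE), and it passed without ascending replicate 3, where 2.61% of all genes were called lower, at -0.49 ± 0.10 (SE; adjusted p = 0.0344 by limma). Rgs3, whose product damps G protein signalling and binds ephrin-B, differed by 0.14 ± 0.09 (SE). Among 7 genes of ephrin and Eph cleavage and turnover 0 passed. Adam10, the protease that cuts ephrin-A ligands from the membrane, differed by -0.001 ± 0.093 (SE), while Adam17, a related protease, differed by -0.30 ± 0.11 (SE; adjusted p = 0.53 by limma).

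**Figure D4:**
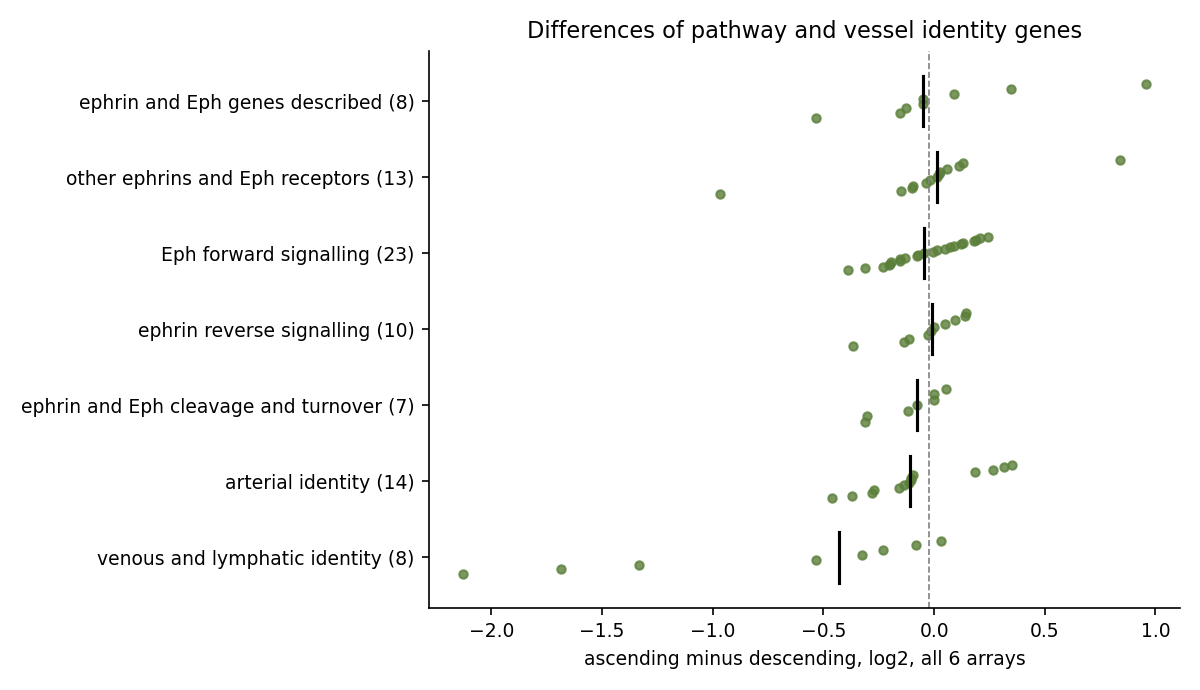
Difference between ascending and descending aorta in log2 units over all 6 arrays, a point for each gene, by gene list with the number of measured genes in brackets. Black bars are list medians and the dashed line is the median of all genes, -0.02; the signalling lists lie close to it, and the venous and lymphatic list has its median at -0.43.

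Ephrin-B2 and EphB4 are the classical pair of arterial and venous identity, so the other genes of these identities were set beside them. Of 14 arterial genes 0 passed over all 6 arrays, and the median difference was -0.11. Gja5, the connexin of arterial endothelium, differed by -0.46 ± 0.14, the endothelial BMP receptor gene Acvrl1 by -0.27 ± 0.10, the Notch target gene Hey1 by 0.32 ± 0.12 and Notch4 by -0.28 ± 0.11 (SE). Dll4, the Notch ligand of arterial endothelium, differed by -0.16 ± 0.09 (SE). Arterial genes therefore lay on both sides of 0, with Efnb2 at 0.35 on the side of Hey1. Leaving out ascending replicate 3, 1 of the 14 passed, against 4.68% of all genes. It was Gja5, at -0.61 ± 0.10 (SE; adjusted p = 0.0165 by limma).

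Of 8 genes of venous and lymphatic identity 0 passed over all arrays, and the median difference was -0.43. Lyve1, the hyaluronan receptor gene that marks lymphatic vessels, differed by -2.13 ± 0.59, the podoplanin gene Pdpn by -0.53 ± 0.15, the apelin receptor gene Aplnr by -1.33 ± 0.43 and the endothelial sialomucin gene Emcn by -1.68 ± 0.59 (SE). Prox1 and Flt4 of the same list lay near 0, at -0.08 ± 0.15 and 0.03 ± 0.09 (SE). Without ascending replicate 3, 5 of the 8 passed, all lower, against 2.61% of all genes. Nr2f2, the transcription factor of venous fate, differed by -0.23 ± 0.12 (SE) and did not pass in either fit, and Ephb4, at -0.05, lay near 0.

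Some marker lists of other cell types, such as mesothelium and endothelium, also set ascending replicates 1 and 2 apart. The median of the smooth muscle list did not, but genes of that list departed in both directions. On ascending replicates 1 and 2, Myh11, Mylk and Itga8 lay below all descending arrays. Others, such as Lmod1, lay above them, at 8.63 and 8.66 for Lmod1 against 7.91 on ascending replicate 3. Mesothelial and epicardial markers had a higher mean in ascending aorta for 8 of 9 genes, and relative to the descending mean the median of the list stood at 1.62, 1.52 and 0.42 on ascending replicates 1, 2 and 3. Their mean level lay between 9.06 and 10.18 on the ascending and between 8.70 and 8.98 on the descending arrays. Endothelial markers had a lower mean in 12 of 12 genes, with median departures of -0.52, -0.51 and -0.16 and mean levels from 10.23 to 10.83 in ascending and from 10.88 to 11.14 in descending aorta. Smooth muscle markers were higher by mean in 4 of 9 genes, at 0.01, -0.02 and -0.21, with mean levels from 10.46 to 10.85 in ascending and from 10.67 to 10.74 in descending aorta. Cardiac muscle markers were higher by mean in 10 of 10 genes, at 0.23, 0.47 and 0.04, with mean levels from 8.36 to 9.14 in ascending and from 8.10 to 8.48 in descending aorta.

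Efna5, Efnb2 and Epha4 departed on the 2 arrays where mesothelial markers were highest and endothelial markers lowest. By list median, cardiac muscle markers were also highest on these 2 arrays, and fibroblast and macrophage markers were also lowest. The part of any of these cell types in the differences of Efna5, Efnb2 and Epha4 was not tested. Fibroblast markers were lower by mean in 6 of 7 genes, at -0.28, -0.68 and -0.09 on ascending replicates 1, 2 and 3, with mean levels from 10.46 to 11.16 in ascending and from 11.25 to 11.32 in descending aorta. Macrophage markers were lower by mean in 9 of 10 genes and were furthest from the descending mean on ascending replicate 2, at -0.96, with mean levels from 8.19 to 9.37 in ascending and from 9.07 to 9.23 in descending aorta. Epithelial markers were higher by mean in 5 of 7 genes and stood highest on ascending replicate 1, at 0.74. Markers of red cells were lower by mean in 3 of 6 genes, of autonomic neurons and Schwann cells in 5 of 7 and of cartilage and sclerotome in 4 of 7. On this log2 scale no marker has a value of 0, so absence of a cell type cannot be read from it.

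**Figure D5:**
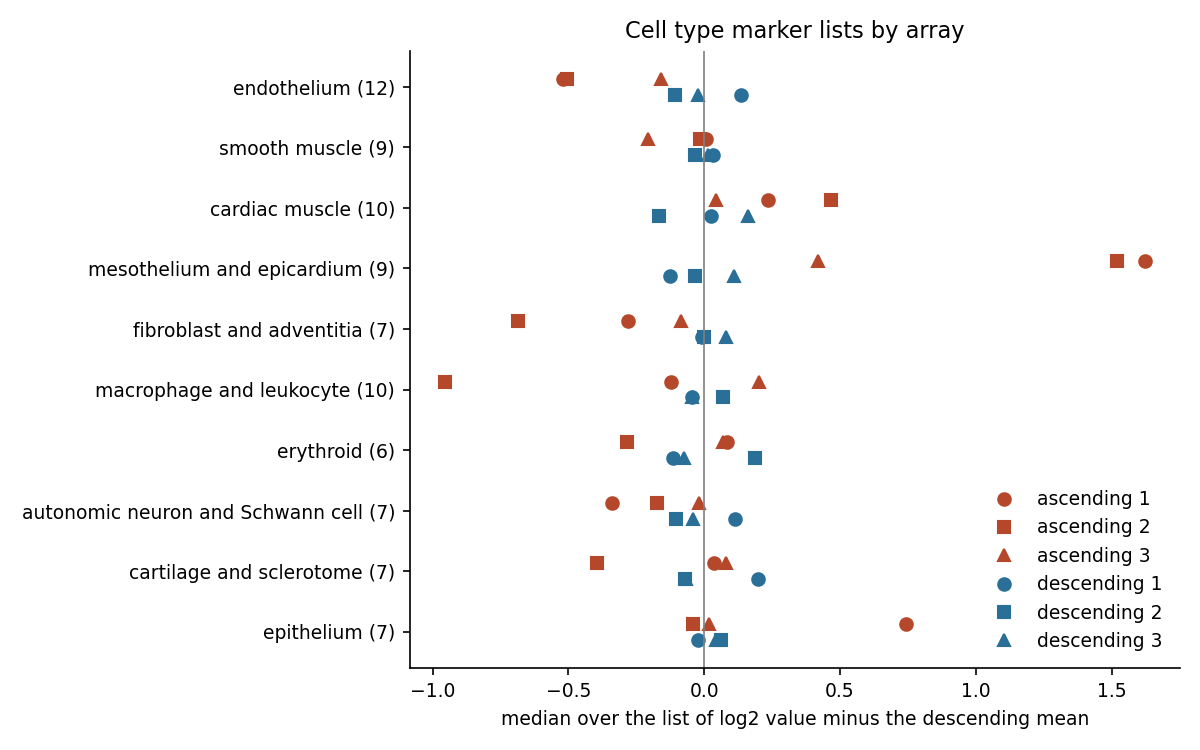
Median over each marker list of the log2 value minus the descending mean, by array, with the number of measured genes in brackets. Mesothelial and epicardial markers stand highest on ascending replicates 1 and 2, at 1.62 and 1.52, and endothelial markers lowest on the same arrays, at -0.52 and -0.51.

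The genes whose values followed these members most closely were sought among all named genes outside the 8. Over 6 arrays, Pearson's r with Efna5 was 0.998 for Sorcs3, a sorting receptor gene, and for Epb41l5, and 0.997 for Synpo2, an actin-binding protein gene of muscle. Epha4 was followed by Dbn1, the actin-binding drebrin gene (r = 0.999), Necab2 (r = 0.998) and Igsf10 (r = 0.997), and Efnb2 by Klk13, Fam131b and Rgs7 (r = 0.994, 0.992 and 0.992). For Efna5, Epha4 and Efnb2, ascending replicates 1 and 2 stood apart from all other arrays, so such coefficients largely restate that gap. They are also common: 324 genes had an r of at least 0.95 with Efna5, 332 with Epha4 and 240 with Efnb2.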

How the data were processed

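Total RNA extracted with Trizol was hybridised as biotinylated cRNA to Affymetrix mouse arrays, per the labels' protocols. The authors deposited log2 values made with RMA (background correction, quantile normalization, summary of probes). Per the submitters' processing notes the tools were RMA and Partek 6.6. Settings and genome build were not given in the sources used here. Equalised arrays hide a shift shared by most genes, and RMA shrinks differences of dim genes. Of 35556 probe sets, 21789 had 1 symbol, 1621 several and 12146 none in the platform annotation; 21698 matched the RefSeq table by Entrez number and 0 symbols changed. The probe set with the highest mean was kept for each gene, and no filter on dim genes was applied. Close paralogs can share probes.

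Segments were compared with limma 3.58.1 (lmFit and eBayes, R 4.3.3) over 19938 genes and 6 arrays, two-sided and with no covariate, and p-values were adjusted by Benjamini and Hochberg's method. With 3 arrays against 3 the smallest exact permutation p is 0.1, so that test was not used. The number of arrays limits the precision. The script was tested on simulated data. Tables and plots were made in Python 3.11.15 (pandas 2.3.3, matplotlib 3.10.9). Members, lists and alternatives were chosen with earlier results of these data known, and the motifs after the values were seen. Every member may be named, of the other lists up to 4 genes with the smallest p (Adam10, Dll4, Nr2f2, Prox1, Flt4, Acta2 and Cdh5 were added after values were seen), and for the 3 members with the smallest p the 3 most correlated genes. Same-numbered arrays did not deviate together (correlations from -0.08 to 0.02), so the numbers were not taken as pairs. Alternatives were repeated quantile normalization, median-centring, filters at the 25th and 50th percentile, the mean of all probe sets, trended robust variance, no moderation, array weights, a replicate block and leaving out arrays.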

Additional observations from a re-analysis of the deposited data

How the results depend on the processing

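The number of the 8 genes passing was 0 in the 9 alternatives that kept all 6 arrays, as in the comparison reported, and so were the numbers for all genes and for the other pathway genes, the replicate block included (smallest adjusted p = 0.602 by limma with the block). Other pathway genes here are the other ephrins and Eph receptors, the signalling and cleavage lists and the arterial, venous and lymphatic identity lists. Leaving out single arrays gave 0 to 3 of the 8 genes, 0 to 933 of all genes and 0 to 9 of the other pathway genes. The highest counts all came without ascending replicate 3. Of those 9, 5 were venous and lymphatic, 1 was arterial, 1 was of reverse signalling and the rest were ephrin or Eph receptor genes. Leaving out ascending replicate 3 and descending replicate 1 together gave 2 of the 8 (Efna5 at 1.60 and Epha4 at -0.73), 469 of all genes and 7 of the other pathway genes. Efna5, Efnb1, Efnb2, Epha4, Epha7 and Ephb3 kept their sign in every setting run. Of these settings, the filters, mean of all probe sets, trended robust variance, no moderation and replicate block leave each member's difference as it was. Those could not have changed a sign. Over single arrays left out, Efna5 ranged from 0.56 to 1.49, Efnb2 from 0.14 to 0.60 and Epha4 from -0.83 to -0.38. Epha3 turned to 0.0241 with array weights and ranged from -0.183 without ascending replicate 1 to 0.0561 without ascending replicate 2. Ephb4 ranged from -0.107 without descending replicate 2 to 0.0254 without descending replicate 1. The cause of these changes of sign was not tested. Each member has 1 probe set, so trying its other probe sets could not be run. The deposited values carry no background signal, so detection of dim genes such as Epha6 was not assessed.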
